A study of Bos indicus with 12 samples.

Results

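Solute carriers are a large group of membrane transporters, and their genes were followed here in blood RNA of 12 cows of the zebu cattle species Bos indicus. A gene was taken as a member when its NCBI symbol had the form SLC, a family number, the letter A and a member number, and when it had a count of 10 or more in at least 3 libraries. Of 302 such symbols among the 26229 gene identifiers of the deposited table, 218 met that count, and they belong to 46 families. Substrate classes were set by family, with single-gene exceptions. A class can therefore hold a gene of another kind, such as the urate transporter SLC2A9 in the sugar class. By class, 14 members fell under glucose and other sugars, 38 under amino acids or peptides, and 62 under inorganic ions or metals. A further 33 belong to the SLC25 family of the inner mitochondrial membrane, and 68 fell under other substrates. The remaining 3, SLC2A4RG, SLC4A1AP and SLC7A6OS, only bear the name of a carrier and are not transporters. In all 12 libraries 180 of the 218 had a count of 10 or more, and no member reached that count in 3 libraries through a single group alone.

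A solute carrier moves its substrate down a gradient or couples it to the flow of sodium, protons or another solute, without spending ATP itself. Immune cells rely on these proteins for glucose and amino acids when they are activated, for lactate export during glycolysis, for zinc, iron and copper control at the cell surface and in the phagosome, and for the exchange of metabolites across the mitochondrial inner membrane. In dairy cows glucose and amino acids are also drawn into the mammary gland for milk, and the study set blood RNA beside milk yield.

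The 4 groups were high yielding Gir cows, low yielding Gir cows, high yielding Shweta Kapila cows and low yielding Shweta Kapila cows, with 3 female cows in each. Gir is a dairy breed of western India and Shweta Kapila a white breed of Goa. All cows were in the second or the third lactation, and yield class was assigned inside a breed from lactation records, so that a high yielding cow is high for its own breed. The labels give no milk yield, age or day in milk. RNA came from blood: the labels name peripheral blood mononuclear cells as the cell type and a PAXgene kit, which takes in whole blood, as the extraction. Each library is 1 cow, so p-values set a group difference against the spread between cows. For each gene that spread is 1 estimate shared by the 4 groups.

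Total counts ran from 14.2 M to 27.2 M per library (M, mega), and the 218 members held between 0.649% and 0.775% of them. The 3 deepest libraries were all from Shweta Kapila, from high yielding cow 3 and low yielding cows 1 and 2. A fit without them keeps only cow 3 of the low yielding Shweta Kapila cows. The 37 gene identifiers of 7 or 8 digits that carry no name took 4.54% to 13.1% of the counts of a library, with the highest shares in low yielding Shweta Kapila cows 1 and 2. Levels below are CPM (counts scaled to library size) after TMM scaling. Before TMM scaling, a count of 10 corresponds to 0.368 to 0.704 CPM. Markers of all main blood cells were present. Summed over their lists, T cell markers (12 of 12 in the table) had 2359.6 (lowest), 2814 (median) and 3692 (highest) CPM in Gir and 2508 (lowest), 4132 (median) and 5747 (highest) CPM in Shweta Kapila, and monocyte markers (6 of 10) had 904 (lowest), 1316 (median) and 1828 (highest) CPM in Gir and 511 (lowest), 836 (median) and 1844 (highest) CPM in Shweta Kapila. Neutrophil markers (6 of 12), which a mononuclear preparation would hold few of, had 1460.0 (lowest), 2062 (median) and 3175 (highest) CPM in Gir and 977 (lowest), 1574 (median) and 2692 (highest) CPM in Shweta Kapila, with CSF3R, the granulocyte growth factor receptor, among them. Platelet and erythroid lists had 1 marker each under 1 CPM in every library.

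No member passed the threshold in any comparison. With edgeR's quasi-likelihood test over 15420 genes and a false discovery rate (FDR) of 0.05, 0 of the 213 members that could be tested were called for milk yield in Gir, for milk yield in Shweta Kapila, for the mean of both, for the difference between them, for breed or for any difference among the 4 groups, against a background of 0.0% of all genes in each. At an unadjusted p under 0.05, 5 members differed by yield in Gir (2.35%, background 1.89%), 15 in Shweta Kapila (7.04%, background 6.98%), and 15 for both breeds together (7.04%, background 4.13%). The yield difference itself differed between Gir and Shweta Kapila for 5 (2.35%, background 3.81%), breed gave 17 (7.98%, background 9.57%), and any group difference gave 10 (background 6.32%). By direction, Gir yield had 4 higher (background 1.17%) and 1 lower (background 0.713%), and Shweta Kapila yield had 7 higher (background 4.05%) and 8 lower (background 2.93%). Both breeds together had 11 higher (background 2.28%) and 4 lower (background 1.85%). The yield fold change, taken with its sign, was higher in Gir than in Shweta Kapila for 3 (background 1.46%) and lower for 2 (background 2.35%). Breed had 10 higher in Gir (background 3.78%) and 7 lower (background 5.79%). DESeq2 called 0 members for yield in Gir (background 0.00649%), yield in Shweta Kapila (0.402%), both breeds (0.0259%), the difference between breeds (0.0584%) and breed (1.26%), and 2 for any group difference, SLC39A2 and SLC29A3 (background 1.35%). Limma's voom with sample weights called 0 members for yield in Gir (background 0.00649%), 52 for yield in Shweta Kapila (24.4%, background 25.3%), 20 for both (9.39%, background 8.36%), 19 for the difference (8.92%, background 8.57%), 41 for breed (19.2%, background 16.7%) and 80 for any group difference (37.6%, background 30.4%). Fold changes below from edgeR's test over all 12 libraries are therefore estimates that did not pass the threshold. They are log2 fold changes, positive when higher in the group named first, given ± an approximate standard error (SE). The SE was worked out as the absolute fold change divided by the square root of the test's F statistic.

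The median log2 fold change of the 213 members was 0.05 for yield in Gir, against -0.02 for all genes, with 124 members above 0 (58.2%, background 47.4%) and 89 below. For yield in Shweta Kapila it was 0.01 against -0.02, with 108 above (50.7%, background 48.3%) and 105 below, and for breed it was 0.05 against -0.04, with 120 above (56.3%, background 45.1%) and 93 below. For both breeds together 111 were above 0 (background 48.5%), and for the difference between breeds 109 were (background 50.9%). A typical member had an SE of 0.40 for yield inside a breed and 0.28 for breed, so that differences of that size were not detectable with 3 cows a group. The spread behind the SE was shared by the 4 groups, but cows differed more in Shweta Kapila. Over all tested genes the median SD of log2(CPM + 0.5) was 0.241 in high and 0.251 in low yielding Gir cows. It was 0.436 in high and 0.488 in low yielding Shweta Kapila cows. The p-values and counts for yield in the 2 breeds are therefore not on an equal footing. The 3 cows of one yield class stood entirely above or below the 3 of the other for 29 members in Gir (13.6%, background 10.2%), 18 of them higher (background 5.12%) and 11 lower (background 5.06%). In Shweta Kapila 13 did so (6.10%, background 7.21%), 6 higher (background 3.51%) and 7 lower (background 3.7%). SLC29A3 was the single member separated in the same direction in both breeds (0.469%, background 0.396%). For breed, leaving out low yielding Shweta Kapila cow 3 gave 5 called members of 216 (2.31%, background 2.84%).

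**Figure D1:**
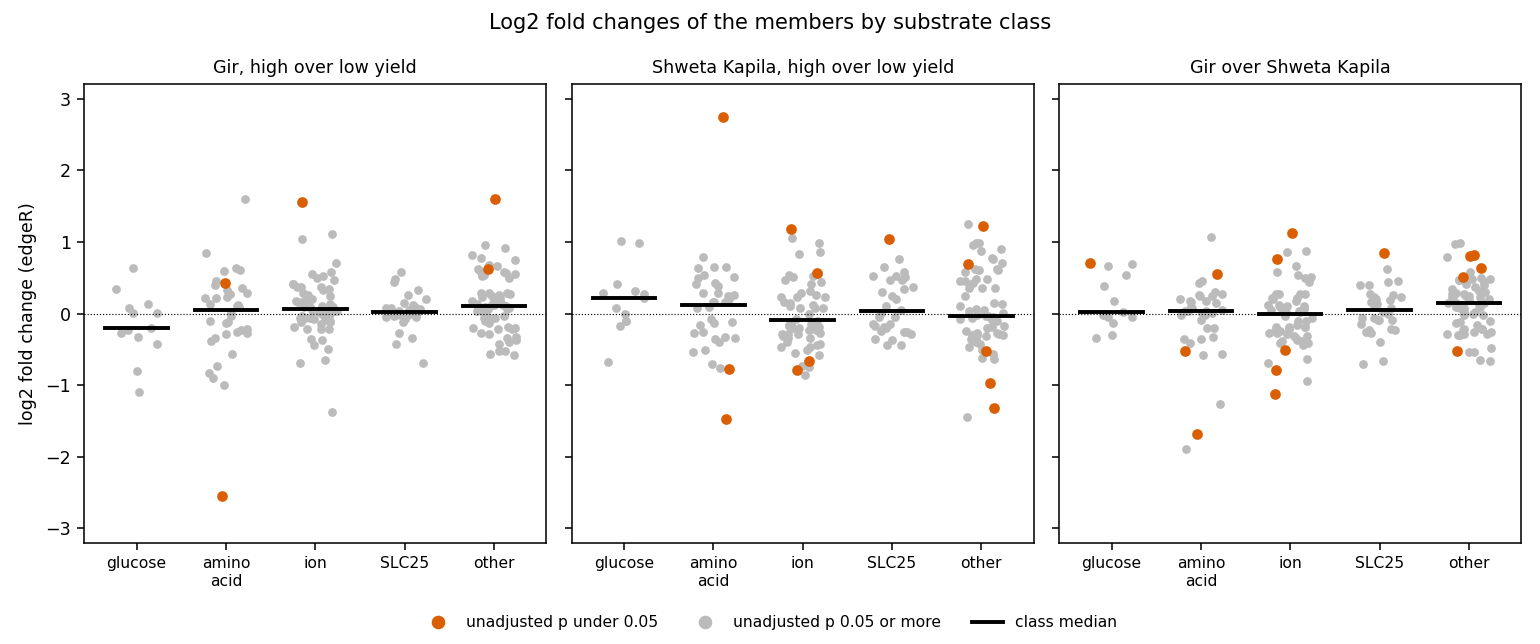
Log2 fold changes (edgeR, y axis) of the tested members by substrate class (x axis) for high over low yield in Gir, high over low yield in Shweta Kapila, and Gir over Shweta Kapila. Each point is a gene, orange points have an unadjusted p under 0.05, and bars are class medians over all tested members. SLC6A12 is not drawn because all 3 high yielding Shweta Kapila cows had a count of 0, and the 3 genes that are not transporters are left out. Points lie on both sides of 0 in every class.

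The summed level of all members ran from 6864 to 7831 CPM over the 12 cows. Sugar transporters summed to 709.5 ± 29.6 CPM in high and 804 ± 93 CPM in low yielding Gir cows, and to 769 ± 122 CPM in high and 719.6 ± 131 CPM in low yielding Shweta Kapila cows (SD, n = 3 each). The sums for ion transporters were 1579 ± 14.1 CPM in high and 1567 ± 17.4 CPM in low yielding Gir cows, a narrow spread, against 1729 ± 171 CPM in high and 1733 ± 325 CPM in low yielding Shweta Kapila cows. Mitochondrial carriers summed to 1224 ± 136 CPM in high and 1162 ± 28.2 CPM in low yielding Gir cows, and to 1239 ± 147 CPM in high and 1154 ± 90.5 CPM in low yielding Shweta Kapila cows. Amino acid transporters summed to 1411 ± 106 CPM in high and 1351 ± 66.3 CPM in low yielding Gir cows, and to 1435 ± 50.7 CPM in high and 1417 ± 129 CPM in low yielding Shweta Kapila cows. Carriers of other substrates summed to 2314 ± 272 CPM in high and 2298 ± 213 CPM in low yielding Gir cows, and to 2012 ± 230.1 CPM in high and 2028 ± 294 CPM in low yielding Shweta Kapila cows. In all 5 substrate classes the high and low yielding cows of each breed overlapped. These sums are not corrected for transcript length and are led by a few genes: SLC44A2, a choline transporter named here after its values were seen, held 9.06% of the members' summed CPM and SLC2A3 held 8.47%. By mean level 14 members exceeded 100 CPM, 123 exceeded 10 CPM, 70 lay between 1 and 10 CPM, and 25 lay under 1 CPM.

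**Figure D2:**
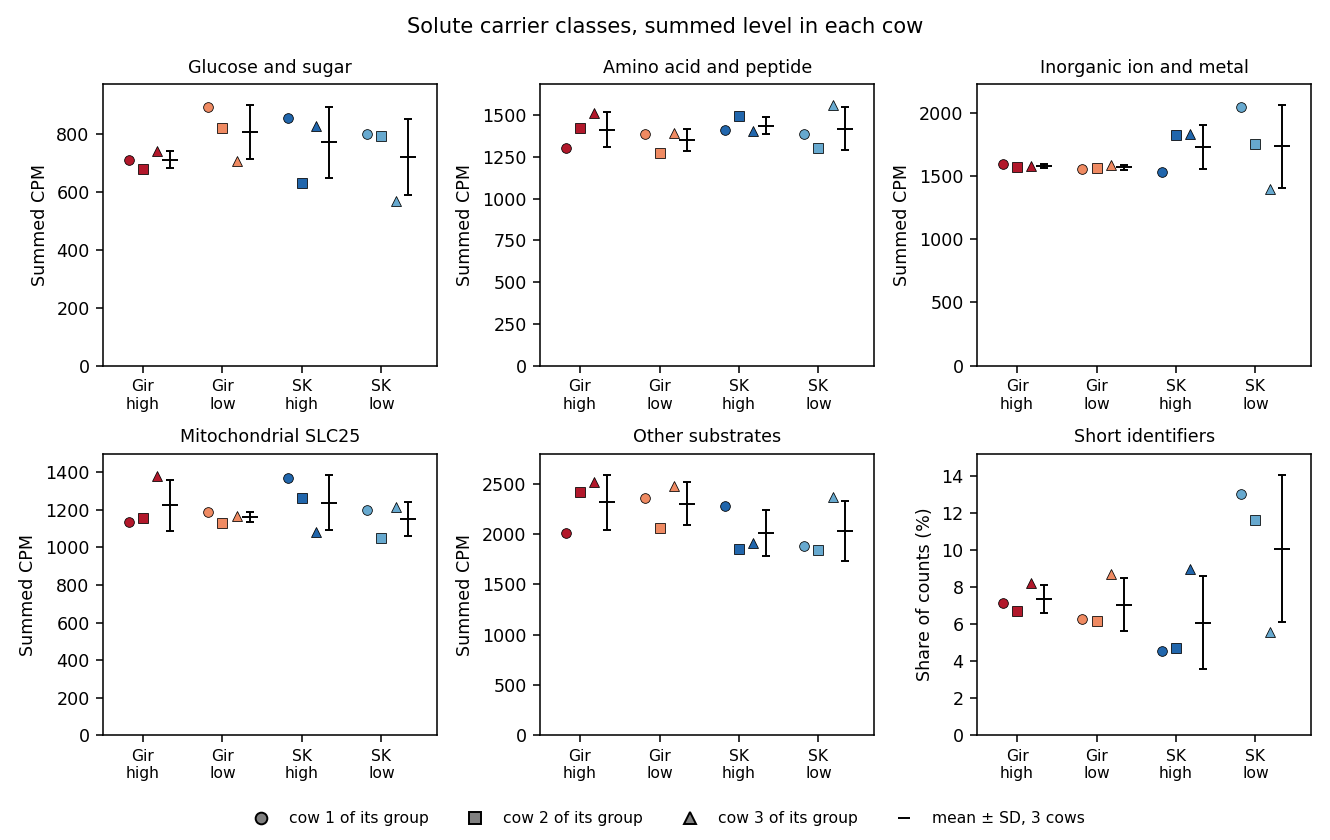
Summed CPM of the members of 5 substrate classes in each cow, and the share of counts on the 37 short identifiers in percent (y axes), for the 4 groups (x axes; SK is Shweta Kapila). Symbols are cows, and the bars give the mean ± SD of 3 cows. Yield classes overlap in summed level in all 5 substrate classes, and the Shweta Kapila groups spread more widely than the Gir groups for ion transporters.

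Glucose and sugar transporters did not separate by yield across both breeds. None of the 13 tested reached an unadjusted p under 0.05 for yield in either breed, with 6 above and 7 below 0 in Gir (median -0.21) and 8 above and 5 below 0 in Shweta Kapila (median 0.21). With 1 cow left out the median ran from -0.20 to -0.03 in Gir and from -0.04 to 0.58 in Shweta Kapila. SLC2A3 (GLUT3, identifier 109559698), the high affinity glucose transporter of leukocytes and neurons, had 586, 516 and 592 CPM in high and 736, 694 and 561 CPM in low yielding Gir cows. In high yielding Shweta Kapila cows it had 673, 518 and 718 CPM, against 716, 693 and 407 CPM in low yielding ones. The yield classes overlapped in both breeds, and the log2 fold changes were -0.23 ± 0.25 in Gir and 0.07 ± 0.25 in Shweta Kapila. SLC2A1 (GLUT1, 109556419), the basal glucose transporter that activated lymphocytes raise, had 10.7, 10.1 and 11.4 CPM in high yielding Gir cows, against 28.4, 16.2 and 11.6 CPM in low yielding Gir cows. All 3 high yielding Gir cows lay below the 3 low yielding ones, but cow 1 of the low class stood far above the others. The log2 fold change of -0.80 ± 0.53 became -0.37 without that cow. In Shweta Kapila SLC2A1 had 17.2, 16.6 and 18.2 CPM in high yielding cows, close to each other, against 4.18, 18.1 and 30.2 CPM in low yielding cows, which enclosed them.

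SLC2A6 (GLUT6), a hexose transporter of lysosomal membranes in macrophages, had 16.5, 18.9 and 25.9 CPM in high and 18.4, 10.5 and 10.5 CPM in low yielding Gir cows. Its levels were 44.2, 18.1 and 9.75 CPM in high and 4.05, 6.21 and 25.6 CPM in low yielding Shweta Kapila cows. The fold change in Shweta Kapila, 1.01 ± 0.66, dropped to 0.24 without high yielding cow 1 and was 2.22 without low yielding cow 3, and -0.023 with the share of short identifiers as a covariate. SLC2A9, a urate transporter, averaged 10.7 ± 1.69 CPM in high and 10.7 ± 3.26 CPM in low yielding Gir cows, and 6.36 ± 2.31 CPM in high and 7.17 ± 5.72 CPM in low yielding Shweta Kapila cows (SD, n = 3 each). SLC2A2 (GLUT2), best known from liver and pancreatic islets, and SLC5A1 (SGLT1), the sodium-glucose cotransporter of intestine, were low but present in every cow. SLC2A2 had 5.46, 4.73 and 4.39 CPM in high and 6.79, 6.402 and 6.401 CPM in low yielding Gir cows, without overlap, and SLC5A1 had 14.5, 12.6 and 13.4 CPM in high and 15.8, 20.4 and 14.8 CPM in low yielding Gir cows, also without overlap. Their fold changes were -0.43 ± 0.34 and -0.33 ± 0.23 in Gir, and 0.27 ± 0.34 and -0.11 ± 0.23 in Shweta Kapila, where the classes overlapped. Together with SLC2A1 these are the 3 sugar transporters of 13 whose yield classes did not overlap in Gir (23.1%, background 10.2%), each lower in high yielding cows (background 5.06%). SLC2A4 (GLUT4), the insulin-responsive transporter of muscle and fat, had at most 5 counts in a library and was 1 of 6 sugar transporter symbols that did not meet the count minimum.

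**Figure D3:**
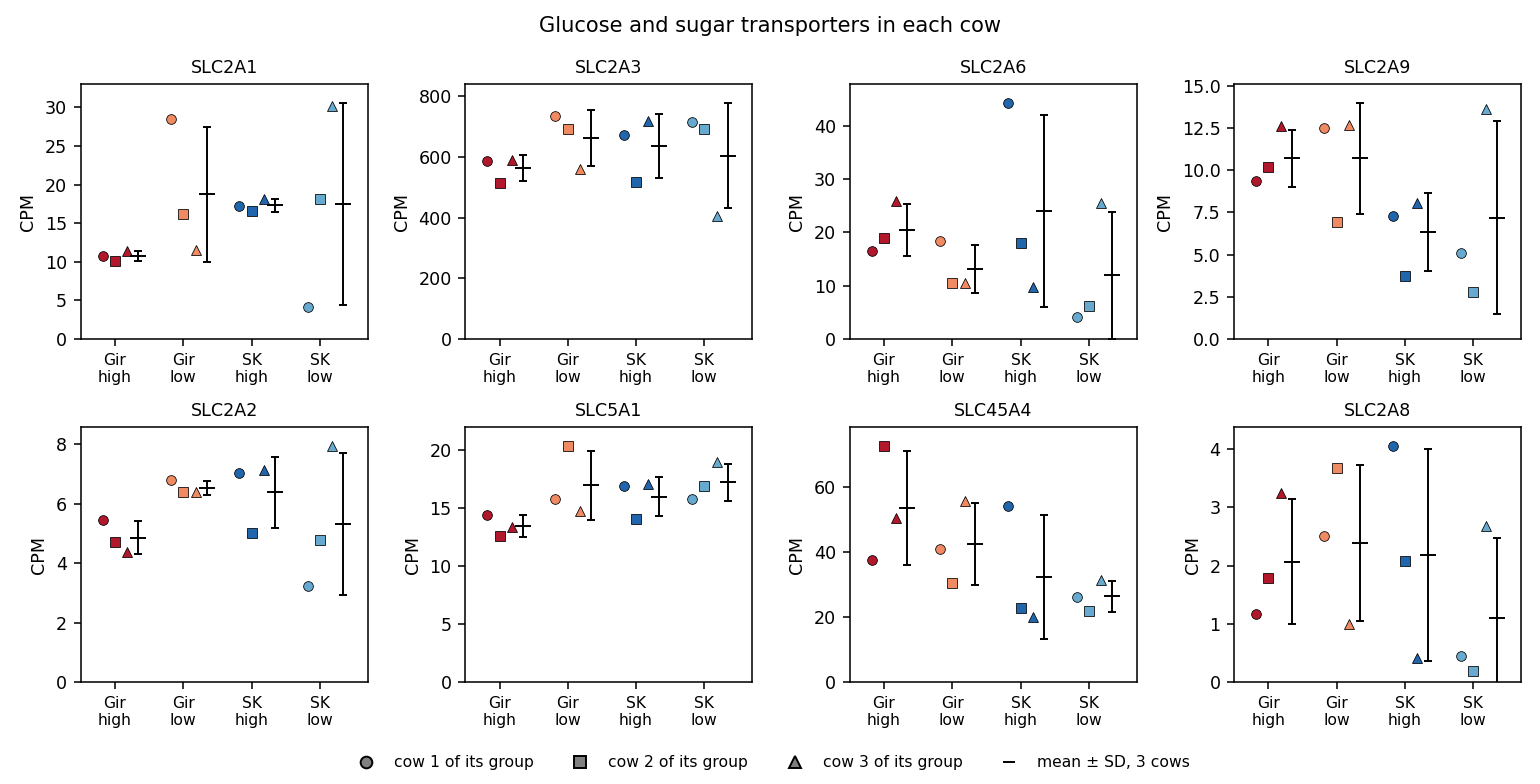
CPM (y axes) of 8 sugar transporters in each cow of the 4 groups (x axes; SK is Shweta Kapila). Symbols are cows and the bars give the mean ± SD of 3 cows, with the lower end of a bar drawn only to 0. SLC2A1 runs from 10.1 to 11.4 CPM in high yielding Gir cows and from 4.18 to 30.2 CPM in low yielding Shweta Kapila cows.

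Among amino acid and peptide transporters, 2 of 38 had an unadjusted p under 0.05 for yield in Gir (5.26%, background 1.89%) and 4 in Shweta Kapila (10.5%, background 6.98%), with class medians of 0.05 and 0.12. SLC36A1 (PAT1, 109562223), which moves small amino acids out of lysosomes with protons, had 81.5, 79.1 and 78.4 CPM in high yielding Gir cows, against 65.98, 58.5 and 53.2 CPM in low yielding Gir cows. The high yielding cows differed by little among themselves and all lay above the low yielding ones. The log2 fold change was 0.43 ± 0.18 with an adjusted p of 1 in edgeR's test, and leaving out 1 cow at a time gave 0.36 to 0.51. In Shweta Kapila SLC36A1 had 56.3, 61.6 and 65.5 CPM in high and 52.6, 60.4 and 51.2 CPM in low yielding cows, which overlapped. Monocyte markers were also higher in high yielding Gir cows, at 1519 to 1828 CPM summed over the 6 markers, against 904 to 1114 CPM in low yielding ones, and their part in these differences was not tested. In bulk blood RNA, more cells of a type and more RNA per cell cannot be told apart.

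Other lysosomal transporters of the class overlapped between yield classes in Gir. SLC15A3, a peptide and histidine transporter of phagocyte lysosomes, had 56.97, 83.1 and 92.4 CPM in high and 52.5, 39.9 and 61.6 CPM in low yielding Gir cows, with cow 1 of the high class below cow 3 of the low class and a fold change of 0.59 ± 0.41. SLC15A4, of the same family and with a part in toll-like receptor signalling, had 60.97 ± 6.73 CPM in high and 55.5 ± 4.23 CPM in low yielding Gir cows. In Shweta Kapila it had 58.5 ± 6.91 CPM in high and 55.2 ± 13.9 CPM in low yielding cows (SD, n = 3 each). SLC38A9, the lysosomal arginine sensor upstream of the kinase complex mTORC1, had fold changes of -0.04 ± 0.26 in Gir and -0.39 ± 0.26 in Shweta Kapila.

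Several plasma membrane carriers were highest among low yielding Shweta Kapila cows in cow 3. SLC7A5 (LAT1), which brings large neutral amino acids into activated lymphocytes, had 30.3, 48.96 and 39.9 CPM in high and 42.6, 24.6 and 43.1 CPM in low yielding Gir cows. In Shweta Kapila it had 38.9, 33.2 and 14.04 CPM in high yielding cows, against 8.14, 13.9 and 86.1 CPM in low yielding ones, where cow 3 stood far above cows 1 and 2. SLC43A2 (LAT4), a uniporter of branched-chain amino acids, had 98.4, 85.1 and 50.1 CPM in high and 25.5, 44.6 and 269 CPM in low yielding Shweta Kapila cows, with the same cow highest. SLC3A2 (4F2hc), the heavy chain that LAT1 needs to reach the membrane, had 88.6, 47.8 and 42.9 CPM in high and 31.04, 34.7 and 71.4 CPM in low yielding Shweta Kapila cows, with cow 3 again highest in the low class. SLC7A1 (CAT1), the main arginine and lysine importer, had 67.98, 80.05 and 78.1 CPM in high and 76.4, 104 and 209 CPM in low yielding Shweta Kapila cows. Its fold change of -0.78 ± 0.31 had an adjusted p of 0.655 in edgeR's test and became -0.26 without low yielding cow 3. SLC1A5 (ASCT2), a glutamine transporter, was higher on average in high yielding cows of both breeds, with fold changes of 0.46 ± 0.36 in Gir and 0.53 ± 0.36 in Shweta Kapila and overlapping classes. SLC7A11 (xCT), the cystine-glutamate exchanger, had fold changes of -0.13 ± 0.30 in Gir and 0.17 ± 0.30 in Shweta Kapila.

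SLC38A2 (SNAT2), a sodium-coupled importer of small neutral amino acids that cells raise when starved of them, had 150.3, 296 and 360.4 CPM in high and 539, 369 and 129 CPM in low yielding Shweta Kapila cows. Low yielding cow 3 was lowest and low yielding cow 1 highest, and the fold changes were -0.36 ± 0.44 in Shweta Kapila and -0.12 ± 0.44 in Gir. SLC38A1 (SNAT1), its neighbour on chromosome 5 of the RefSeq table, had -0.34 ± 0.52 in Shweta Kapila and -0.27 ± 0.53 in Gir. SLC7A7 (y+LAT1), the exchanger of cationic for neutral amino acids in macrophages, had 0.24 ± 0.36 and 0.61 ± 0.36 in the same order.

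SLC15A1 (PEPT1), the peptide transporter of the intestine, was low in blood and had 1.71, 1.44 and 4.89 CPM in high and 7.65, 10.2 and 4.74 CPM in low yielding Shweta Kapila cows. High yielding cow 3 lay just above the lowest low yielding cow, and the fold change was -1.48 ± 0.54 (adjusted p = 0.655, edgeR). It was -2.26 without that high yielding cow and -0.92 with the share of short identifiers as a covariate. In Gir the fold change over all 12 libraries was 0.09 ± 0.54. SLC6A20, a proline transporter, was lower in high yielding cows on average in both breeds, with -0.57 ± 0.37 in Gir and -0.76 ± 0.36 in Shweta Kapila, and -0.67 ± 0.26 for both together. Some members rest on few counts and are given as counts. SLC16A10, an aromatic amino acid transporter, had 2.23, 4.64 and 0 counts in high and 11, 26.9 and 4 counts in low yielding Gir cows. SLC38A11 had 19.9, 30.4 and 8 counts in high and 4, 0 and 4.69 counts in low yielding Shweta Kapila cows. SLC6A12, a betaine transporter, had a count of 0 in all 3 high yielding Shweta Kapila cows and 0, 4.43 and 19.8 counts in low yielding ones, so no fold is given for it. The counts were 4, 18 and 0 in high and 4, 19 and 28 in low yielding Gir cows.

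Ion and metal transporters held the member of lowest p for yield in Gir. SLC39A2 (ZIP2, 109564860), a zinc importer, had 2.96, 3.695 and 1.96 CPM in high yielding Gir cows, against 1.02, 0.787 and 1.099 CPM in low yielding Gir cows. All 3 high yielding cows exceeded all 3 low yielding ones, at counts of 50.7, 68.5 and 37.6 in high and 15.1, 14.9 and 22.5 in low yielding cows. Its level was 1.27, 0.907 and 0.934 CPM in high and 0.934, 1.38 and 0.457 CPM in low yielding Shweta Kapila cows, which overlapped and stood near the low yielding Gir cows. The log2 fold change was 1.56 ± 0.46 in Gir (adjusted p = 1, edgeR; 1.34 to 1.78 with 1 cow left out) and 0.15 ± 0.46 in Shweta Kapila. DESeq2's test for any difference among the 4 groups called this gene. Over the class, 36 of 60 tested members were above 0 and 24 below in Gir (median 0.07), and 28 above and 32 below in Shweta Kapila (median -0.09).

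The zinc exporters of the SLC30 family and the importers of the SLC39 family were split in direction in Gir. There, 3 of 6 SLC30 members were above 0 and 3 below, and 8 of 13 SLC39 members were above and 5 below. In Shweta Kapila 0 of 6 SLC30 members were above 0 (background 48.3%), with a median of -0.34 and none at an unadjusted p under 0.05, a pattern picked out after its values were seen. SLC30A1 (ZnT1), the plasma membrane zinc exporter, had 24.4, 53.5 and 59.6 CPM in high and 92.3, 54.4 and 35.1 CPM in low yielding Shweta Kapila cows, and the classes overlapped. SLC39A1 (ZIP1), a broadly expressed importer, had 54.8, 58.6 and 66.5 CPM in high and 52.5, 48.7 and 50.6 CPM in low yielding Gir cows, without overlap, and 74.1, 48.3 and 43.8 CPM in high and 30.5, 36.9 and 44.9 CPM in low yielding Shweta Kapila cows. Its fold changes were 0.24 ± 0.24 in Gir and 0.57 ± 0.24 in Shweta Kapila, and the Shweta Kapila value was 0.31 without high yielding cow 1 and 0.30 with the share of short identifiers as a covariate. SLC39A13 (ZIP13), of the secretory pathway, had 35.1, 33.4 and 13.2 CPM in high and 5.96, 7.22 and 23.01 CPM in low yielding Shweta Kapila cows, with high yielding cow 3 and low yielding cow 3 each nearer the other class. The fold change of 1.18 ± 0.49 was 2.04 without low yielding cow 3 and 0.28 with the share of short identifiers as a covariate. SLC39A8 (ZIP8), a zinc and manganese importer, and SLC39A14 (ZIP14), an importer of zinc and iron, had fold changes of -0.21 ± 0.68 and -0.09 ± 0.33 in Gir and -0.55 ± 0.67 and 0.08 ± 0.33 in Shweta Kapila.

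Of the iron, copper and magnesium transporters SLC11A1, SLC40A1, SLC31A1 and SLC41A1, the yield classes separated for SLC11A1 in Gir and overlapped otherwise. SLC11A1 (NRAMP1), which pumps iron and manganese out of the phagosome of macrophages and neutrophils, had 124, 128 and 147 CPM in high yielding Gir cows, against 100.1, 95.8 and 79.6 CPM in low yielding Gir cows, without overlap. In Shweta Kapila it had 153, 50.6 and 59.01 CPM in high yielding cows, led by cow 1, against 49.98, 52.3 and 94.7 CPM in low yielding cows. The fold changes were 0.53 ± 0.39 in Gir and 0.41 ± 0.39 in Shweta Kapila. Neutrophil markers summed to 1702 to 3175 CPM in high and 1460.0 to 2113 CPM in low yielding Gir cows, which overlapped. The monocyte sums did not overlap in Gir, as given above, and were highest among Shweta Kapila cows in high yielding cow 1, at 1844 CPM. The part of either cell type was not tested. SLC40A1 (ferroportin), the cellular iron exporter, had fold changes of 0.37 ± 0.29 in Gir and -0.34 ± 0.29 in Shweta Kapila. SLC31A1 (CTR1), the copper importer, had 0.33 ± 0.32 and -0.46 ± 0.32 in the same order. SLC41A1, a magnesium exporter, had -0.36 ± 0.33 and -0.28 ± 0.33.

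Among cation, chloride and bicarbonate transporters, the yield classes of SLC4A4 and SLC24A1 did not overlap in Shweta Kapila. SLC12A3, the thiazide-sensitive sodium-chloride cotransporter of the kidney, had 0.813, 0.706 and 0.826 CPM in high and 0.543, 0.315 and 0.287 CPM in low yielding Gir cows, without overlap, with a fold change of 1.04 ± 0.51 in Gir and 0.54 ± 0.48 in Shweta Kapila. SLC12A2 (NKCC1), which loads cells with sodium, potassium and chloride, had 55.9, 34.1 and 36.5 CPM in high and 45.5, 59.5 and 73.1 CPM in low yielding Gir cows, with a fold change of -0.49 ± 0.45. SLC12A7, a potassium-chloride exporter that regulates volume, had 0.37 ± 0.39 in Gir. SLC4A4, a sodium bicarbonate cotransporter, had 7.34, 5.44 and 9.41 CPM in high and 13.7, 14.4 and 10.2 CPM in low yielding Shweta Kapila cows, without overlap, and a fold change of -0.78 ± 0.29, or -0.51 with the same covariate, the share of short identifiers. SLC24A1, a sodium-calcium exchanger that also uses potassium, had 18.2, 23.4 and 23.5 CPM in high and 26.4, 43.6 and 33.3 CPM in low yielding Shweta Kapila cows, also without overlap, and a fold change of -0.67 ± 0.25. Each had an adjusted p of 0.655 in edgeR's test, and in Gir their fold changes were 0.09 ± 0.29 and -0.00 ± 0.25. SLC20A1 (PiT1), the sodium-phosphate importer, had 233, 331 and 274 CPM in high and 259, 203 and 129 CPM in low yielding Shweta Kapila cows, a fold change of 0.50 ± 0.27 with overlap between high yielding cow 1 and low yielding cow 1. SLC4A1 (band 3), the chloride-bicarbonate exchanger of red cells, was not tested because it had 0, 0 and 48.2 counts in high and 4, 0 and 6.94 counts in low yielding Gir cows, and 0, 42.98 and 11.6 counts in high and 8.598, 11.3 and 0 counts in low yielding Shweta Kapila cows.

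The SLC25 carriers had fold changes for yield in Gir that were the most tightly grouped of the 5 substrate classes. Of 32 tested, 19 were above 0 and 13 below in Gir (median 0.03, quartiles -0.04 and 0.09), and 17 above and 15 below in Shweta Kapila (median 0.03). SLC25A3, the phosphate carrier that feeds ATP synthase, had 186, 172 and 234 CPM in high and 190.0, 202 and 211 CPM in low yielding Gir cows, and 221, 141 and 154 CPM in high and 182, 194 and 196 CPM in low yielding Shweta Kapila cows. Both pairs of classes overlapped, with fold changes of -0.03 ± 0.21 in Gir and -0.15 ± 0.21 in Shweta Kapila. SLC25A4, an ADP/ATP carrier, had 0.04 ± 0.39 in Gir and 0.58 ± 0.39 in Shweta Kapila. SLC25A12 and SLC25A13, the aspartate-glutamate carriers of the malate shuttle, had -0.03 ± 0.22 and -0.05 ± 0.28 in Gir, and SLC25A11, its oxoglutarate carrier, had 0.08 ± 0.34 in Gir and 0.53 ± 0.35 in Shweta Kapila.

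SLC25A20 (109576316), which exchanges acylcarnitine for carnitine so that fatty acids can be oxidised, was the single mitochondrial member with an unadjusted p under 0.05 for yield. It had 32.2, 37.6 and 28.8 CPM in high yielding Gir cows, against 27.7, 16.8 and 21.2 CPM in low yielding Gir cows, without overlap. In Shweta Kapila it had 56.1, 29.2 and 14.6 CPM in high and 10.8, 10.6 and 27.3 CPM in low yielding cows, where high yielding cow 3 lay below low yielding cow 3. The log2 fold changes were 0.59 ± 0.47 in Gir, 1.04 ± 0.47 in Shweta Kapila and 0.81 ± 0.33 for both (adjusted p = 0.874, edgeR). The Shweta Kapila value was 0.45 without high yielding cow 1 and 0.16 with the share of short identifiers as a covariate. CPT1A, which makes the acylcarnitine that this carrier takes up, had 117, 107 and 102 CPM in high and 62.6, 34.3 and 45 CPM in low yielding Gir cows, with a fold change of 1.20 ± 0.32 that did not pass the threshold either (adjusted p = 1).

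Among carriers linked to iron and haem, SLC25A37 (mitoferrin-1), the mitochondrial iron importer of red cell precursors, had 124, 147 and 205 CPM in high and 138, 129 and 146 CPM in low yielding Gir cows. SLC25A39, a glutathione importer, had 74.7, 91.7 and 152 CPM in high and 95.6, 84.3 and 73.8 CPM in low yielding Gir cows. High yielding Gir cow 3 was highest for both, and in the same library ALAS2, the haem synthesis enzyme of erythroid cells, had 528 CPM, against 8.88 to 113 CPM in the other 11. The part of red cell precursors in these values was not tested. SLC25A28 (mitoferrin-2), the iron importer of other cells, had 0.09 ± 0.37 in Gir and 0.47 ± 0.37 in Shweta Kapila, and SLC25A38, the glycine carrier for haem synthesis, had 0.01 ± 0.21 and 0.34 ± 0.21. SLC25A17, a family member of the peroxisome rather than the mitochondrion, had 21.8, 23.5 and 29.3 CPM in high and 31.97, 39.5 and 29.97 CPM in low yielding Shweta Kapila cows, without overlap, and a fold change of -0.44 ± 0.22, or -0.27 with the share of short identifiers as a covariate.

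Transporters of other substrates held the lowest p-values for yield in Shweta Kapila. SLC6A4 (109573929), the serotonin transporter that loads platelets, had 10.1, 5.71 and 9.86 CPM in high yielding Shweta Kapila cows, against 16.4, 27.6 and 20.1 CPM in low yielding ones. All 3 high yielding cows lay below all 3 low yielding ones. In Gir it had 17.2, 19.2 and 33.3 CPM in high and 12.4, 17.4 and 27.5 CPM in low yielding cows, which overlapped. The log2 fold change was -1.32 ± 0.38 in Shweta Kapila (adjusted p = 0.575, edgeR; -1.49 to -1.08 with 1 cow left out) and 0.28 ± 0.37 in Gir, and the difference between breeds was 1.60 ± 0.53 (adjusted p = 0.955). Summed platelet markers (8 of 10 in the table) had 742 to 899 CPM in high and 614 to 949 CPM in low yielding Shweta Kapila cows, which overlapped.

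SLC29A3 (109553832), the lysosomal nucleoside transporter ENT3, had 35.7, 32.8 and 39.5 CPM in high and 32.2, 26.9 and 29.04 CPM in low yielding Gir cows. In Shweta Kapila it had 32.5, 39.6 and 29.3 CPM in high and 20.9, 18.7 and 23.5 CPM in low yielding cows. The high yielding cows lay above the low yielding ones in both breeds, by a narrow gap in Gir and a wider one in Shweta Kapila. The fold changes were 0.29 ± 0.21 in Gir, 0.69 ± 0.21 in Shweta Kapila and 0.49 ± 0.15 for both (adjusted p = 0.874, edgeR; 0.43 to 0.54 with 1 cow left out). SLC29A1 (ENT1), the nucleoside transporter of the plasma membrane, had negative fold changes, -0.52 ± 0.29 in Gir and -0.18 ± 0.28 in Shweta Kapila.

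SLC13A5 (109574168), a sodium-coupled citrate importer best known from liver and brain, had 256, 75.1 and 141 CPM in high and 57.2, 69.96 and 73.99 CPM in low yielding Shweta Kapila cows. The low yielding cows were close together and below all high yielding ones, of which cow 1 was by far the highest. The fold change of 1.23 ± 0.40 (adjusted p = 0.636, edgeR) was 0.70 without that cow. In Gir SLC13A5 had 125, 152 and 250.2 CPM in high and 217, 140.3 and 196 CPM in low yielding cows, with a fold change of -0.07 ± 0.39. SLC19A3, a thiamine importer, had 2.09, 1.07 and 1.72 CPM in high and 3.602, 3.08 and 2.91 CPM in low yielding Shweta Kapila cows, without overlap, and a fold change of -0.98 ± 0.38.

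SLC22A13 (109576508), an organic anion transporter of urate and nicotinate, had 2.73, 5.76 and 2.17 CPM in high yielding Gir cows, against 1.901, 0.892 and 0.764 CPM in low yielding Gir cows. The classes did not overlap, and high yielding cow 2 was highest. The fold change was 1.59 ± 0.48 and became 1.06 without that cow. In Shweta Kapila it was 0.36 ± 0.48. SLC22A14, which lies next to SLC22A13 on chromosome 22 of the RefSeq table and is named for that reason after its values were seen, was also highest in high yielding Gir cow 2, with 1.16, 6.901 and 2.48 CPM in high and 2.04, 1.78 and 1.62 CPM in low yielding Gir cows. SLC46A2 (109563354), a transporter of the folate carrier family that takes up bacterial muropeptides, had 52.96, 71.8 and 69.6 CPM in high and 40.5, 33.3 and 52.4 CPM in low yielding Gir cows, just without overlap. Its fold change was 0.62 ± 0.26 in Gir and -0.40 ± 0.26 in Shweta Kapila, where it had 38.9, 24.6 and 31.9 CPM in high and 36.3, 53.1 and 36.8 CPM in low yielding cows.

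**Figure D4:**
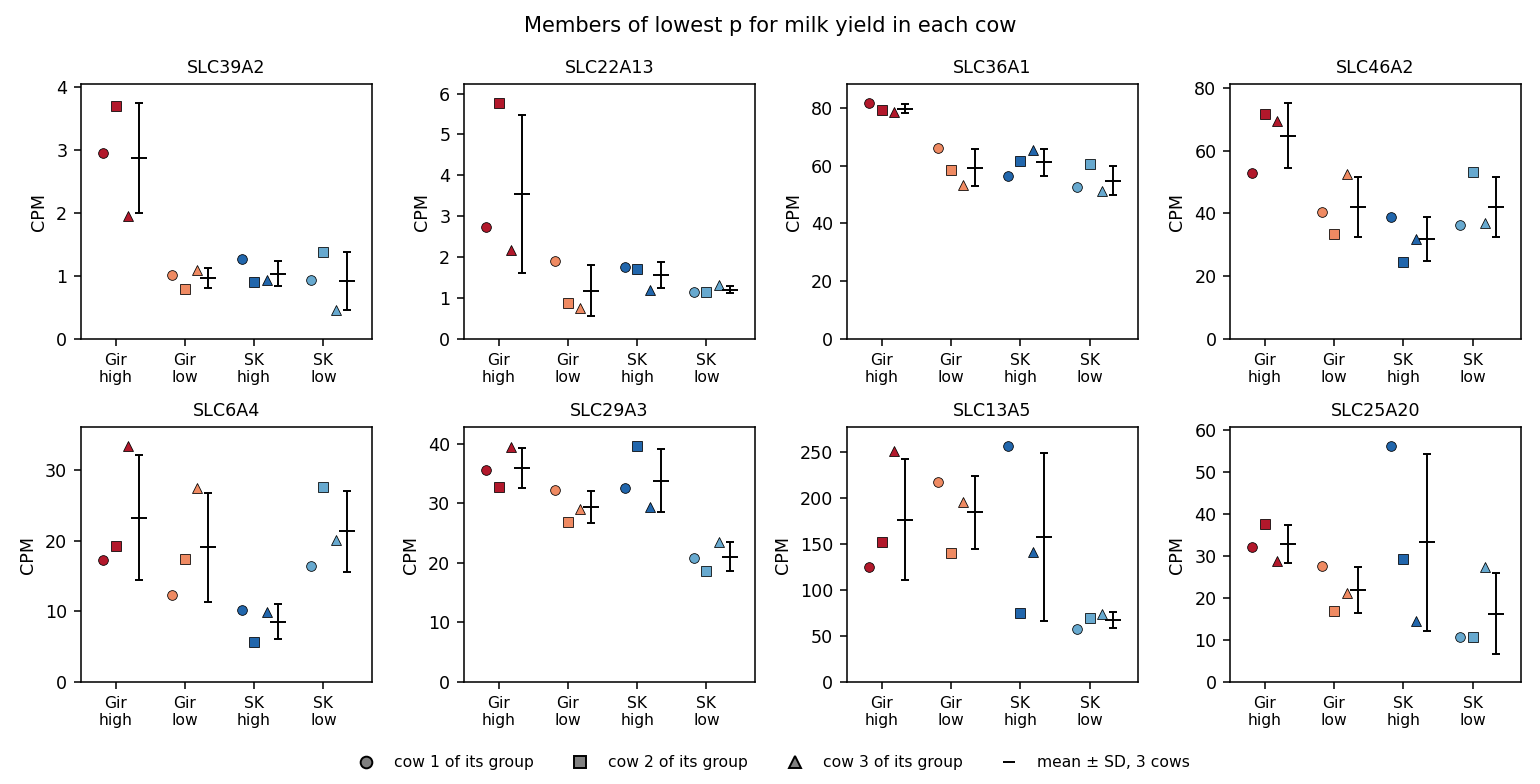
CPM (y axes) in each cow of the 4 groups (x axes; SK is Shweta Kapila) for 8 members of low p for milk yield. Symbols are cows and the bars give the mean ± SD of 3 cows. SLC39A2, SLC22A13, SLC36A1 and SLC46A2 are higher in every high yielding than in every low yielding Gir cow, SLC6A4 is lower and SLC13A5 higher in every high yielding Shweta Kapila cow, and SLC29A3 is higher in the high class of both breeds.

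Of the lactate and fatty acid transporters SLC16A1, SLC16A3 and SLC27A1, the yield classes separated for SLC16A1 in Gir. SLC16A1 (MCT1), the lactate and pyruvate transporter, had 21.3, 22.8 and 27.1 CPM in high and 15.7, 12.6 and 18.01 CPM in low yielding Gir cows, without overlap and with a fold change of 0.62 ± 0.35, but -0.25 ± 0.35 in Shweta Kapila. SLC16A3 (MCT4), the lactate exporter of glycolytic cells, had 67.1, 84.6 and 75.1 CPM in high and 82.9, 74.9 and 48.4 CPM in low yielding Gir cows. In Shweta Kapila it had 112, 55.5 and 32.4 CPM in high and 16.2, 32.8 and 97.05 CPM in low yielding cows, with low yielding cow 3 above cows 1 and 2. SLC27A1, a fatty acid transporter, had 0.09 ± 0.49 in Gir and 0.49 ± 0.50 in Shweta Kapila. All 5 SLC27 members had positive fold changes in Gir, between 0.09 and 0.82 (background 47.4%), and 4 of 5 did in Shweta Kapila (background 48.3%). None had an unadjusted p under 0.05, and this pattern too was picked out after its values were seen. SLC19A1, the reduced folate carrier, had 7.09, 7.04 and 2.69 CPM in high and 2.05, 2.94 and 15.6 CPM in low yielding Shweta Kapila cows. SLC52A2, a riboflavin importer, had 34.9, 32.5 and 8.07 CPM in high and 2.62, 6.67 and 29 CPM in low yielding Shweta Kapila cows. SLC44A1, a choline transporter, and SLC46A3, a lysosomal transporter, had fold changes of 0.11 ± 0.35 and 0.15 ± 0.29 in Gir and -0.57 ± 0.35 and -0.42 ± 0.29 in Shweta Kapila.

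The 3 genes that are not transporters gave no call. SLC2A4RG, a DNA-binding protein first described at the GLUT4 gene, had 21.1, 12.9 and 4.48 CPM in high and 3.16, 3.82 and 9.65 CPM in low yielding Shweta Kapila cows, with low yielding cow 3 above high yielding cow 3 and a fold change of 1.21 ± 0.56. SLC7A6OS is encoded next to SLC7A6 on chromosome 18 of the RefSeq table, and the spans of the 2 genes overlap there, so reads of one could be counted for the other. Its fold change for breed was -0.37 ± 0.15, beside -0.52 ± 0.21 for SLC7A6. Altogether 6 pairs of members, with 11 genes, are neighbours among protein-coding genes of that table, and 1 of these pairs overlaps.

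Between breeds, 10 members were higher in Gir and 7 lower at an unadjusted p under 0.05, and 0 of 213 members had breeds that did not overlap (background 0.603%). SLC39A6 (109577906), the zinc importer ZIP6 of activated T cells, gave the lowest p. It had 25.97 (lowest), 43.7 (median) and 57.97 (highest) CPM in Gir and 33.6 (lowest), 98.9 (median) and 151 (highest) CPM in Shweta Kapila. High yielding Shweta Kapila cow 1 and low yielding cow 3 lay inside the Gir range and the other 4 lay above it. The log2 fold change was -1.12 ± 0.32 (adjusted p = 0.316, edgeR), and -0.39 without the 3 deepest libraries, which are 3 of those 4 cows. T cell markers, given above, had 10 of 12 fold changes lower in Gir, where 45.1% of all genes were above 0 for breed. Of these, 7 had an unadjusted p under 0.05 in edgeR's test (background 5.79%), and the part of T cells was not tested.

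SLC6A6 (TauT, 109576367), the taurine importer, was higher in Gir, with 65.9 (lowest), 89 (median) and 117 (highest) CPM in Gir and 44.1 (lowest), 62.2 (median) and 75.9 (highest) CPM in Shweta Kapila. Its fold change of 0.55 ± 0.17 (adjusted p = 0.338, edgeR) stayed between 0.48 and 0.64 with 1 cow left out. SLC37A2, a sugar phosphate exchanger of macrophages, had 67.7 (lowest), 107 (median) and 124 (highest) CPM in Gir and 32.9 (lowest), 49.6 (median) and 115 (highest) CPM in Shweta Kapila. A single Shweta Kapila cow, low yielding cow 3, lay inside the Gir range, and the fold change was 0.81 ± 0.28, or 1.15 without that cow and 0.40 without the 3 deepest libraries. SLC45A4, of the proton-linked sugar transporter family, had 30.5 (lowest), 45.8 (median) and 72.5 (highest) CPM in Gir and 20.1 (lowest), 24.4 (median) and 54.2 (highest) CPM in Shweta Kapila, with a fold change of 0.70 ± 0.28. SLC25A41, a mitochondrial ATP-magnesium/phosphate carrier, had 4.16 (lowest), 4.67 (median) and 5.16 (highest) CPM in Gir and 1.11 (lowest), 2.51 (median) and 4.34 (highest) CPM in Shweta Kapila, with a fold change of 0.85 ± 0.30, or 0.38 without the 3 deepest libraries. SLC9A5, a sodium-proton exchanger, had 1.12 ± 0.42, or 0.51 without those libraries, and SLC13A5 had 0.81 ± 0.28. Lower in Gir were SLC7A6 (y+LAT2), which exports arginine for glutamine, with 120.5 (lowest), 142 (median) and 162 (highest) CPM in Gir and 100.02 (lowest), 198 (median) and 343 (highest) CPM in Shweta Kapila, and SLC17A5, the lysosomal sialic acid exporter, with a fold change of -0.52 ± 0.22. Without the 3 deepest libraries the breed values were -0.19 for SLC7A6 and -0.13 for SLC17A5.

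Leaving out a single cow gave called members in the breed comparison. Without low yielding Shweta Kapila cow 3, 5 of 216 members were called at an FDR of 0.05 by edgeR (2.31%, background 2.84%), named here after their values were seen. Higher in Gir were SLC25A23 at 1.48, SLC25A41 at 1.21, SLC37A2 at 1.15 and SLC43A2 at 1.05 on the log2 scale, and lower in Gir was SLC39A6 at -1.30. SLC25A23 and SLC25A41 are carriers of the same kind and neighbours on chromosome 7 of the RefSeq table. In that cow SLC25A23 had 4.74 CPM, against 0.445 and 0.736 CPM in the other low yielding Shweta Kapila cows, 2.29 to 5.13 CPM in the high yielding ones and 3.21 (lowest), 3.78 (median) and 4.77 (highest) CPM in Gir. All 6 SLC30 zinc exporters were lower in Gir, while 45.1% of all genes were above 0 for breed. Their fold changes ran from -0.41 to -0.18 with none at an unadjusted p under 0.05, a pattern picked out after its values were seen.

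By lowest p, the yield difference differed between breeds for SLC6A4, given above, and then for SLC46A2, at 1.03 ± 0.37 (adjusted p = 0.955, edgeR). SLC4A5, a sodium bicarbonate cotransporter, had a difference of -1.18 ± 0.45, with -0.65 ± 0.32 in Gir and 0.53 ± 0.32 in Shweta Kapila. SLC13A5 followed at -1.30 ± 0.55, or -0.76 without high yielding Shweta Kapila cow 1. SLC39A2 had 1.41 ± 0.65, or 0.33 without the 3 deepest libraries, where the low yielding Shweta Kapila group is cow 3 alone. None passed the threshold. Of the 13 tested sugar transporters 10 had a lower yield fold change, taken with its sign, in Gir than in Shweta Kapila. The other 3 (23.1%, background 50.9%) had a higher one. The median was -0.31, against 0.01 for all genes, and ran from -0.56 to -0.04 with 1 cow left out.

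Genes that work beside these carriers were followed in 8 lists, and none of their members passed the threshold in any comparison (edgeR). Single genes of these lists, CPT1A above among them, were named by no rule set in advance and do not stand for their lists. Levels of CPT1A and FXYD6 are given for Gir alone, and those of HIF1A and BSG for Shweta Kapila alone. Yield classes did not overlap for 10.2% of all genes in Gir and 7.21% in Shweta Kapila. Over all genes 47.4% were above 0 for yield in Gir and 48.3% in Shweta Kapila, with a median of -0.02 in each. The sodium pump, which keeps the gradient that many carriers use, had 5 of 5 tested genes above 0 for yield in Gir (median 0.40) and 2 of 5 in Shweta Kapila (median -0.15). Its regulator FXYD6 had 81.8, 87.8 and 106 CPM in high and 68.1, 62.9 and 38.3 CPM in low yielding Gir cows. For glucose use, 9 of 15 were above 0 in Gir and 10 of 15 in Shweta Kapila. Unlike most of that list, HIF1A, the hypoxia factor that induces GLUT1, was lower on average in high yielding Shweta Kapila cows. It had 44.2, 73.01 and 143 CPM in high and 221, 172 and 102 CPM in low yielding Shweta Kapila cows. For the amino acid stress response these were 6 and 8 of 11, and for amino acid sensing at the lysosome 9 and 9 of 16. BSG (basigin), the chaperone of MCT1 and MCT4, had 272, 177 and 155 CPM in high and 99.7, 131 and 153 CPM in low yielding Shweta Kapila cows, and its list had 9 of 15 above 0 in Gir and 6 of 15 in Shweta Kapila. Mitochondrial partners had 15 of 20 above 0 in Gir (median 0.08) and 9 of 20 in Shweta Kapila (median -0.01), and metal handling genes 7 of 12 in each. STEAP4, a metalloreductase that prepares iron and copper for uptake, had 285, 340.4 and 277 CPM in high and 135, 92.9 and 307 CPM in low yielding Gir cows, 95.1, 116 and 139 CPM in high and 28.6, 108 and 68.1 CPM in low yielding Shweta Kapila cows, and a breed fold change of 1.38 ± 0.33. Transporters outside the naming rule, such as SLCO genes and SLC35 genes with another letter than A, had 11 of 25 above 0 in Gir and 16 of 25 in Shweta Kapila.

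Cytotoxic and T cell markers were separated by yield class in Shweta Kapila, with no gene called. The 6 NK and cytotoxic markers summed to 992 to 3584 CPM in high and 468 to 509 CPM in low yielding Shweta Kapila cows, and the 12 T cell markers to 4316 to 5747 CPM in high and 2508 to 3947 CPM in low yielding ones. The B cell list (9 of 10) had 809 to 925 CPM in high and 747 to 3151 CPM in low yielding Shweta Kapila cows. These cell lists and the share of short identifiers differ between the same cows as the members above. No cell list was put in a fit, and the part of the cells in the Shweta Kapila values was not tested. The covariate fit held the share alone. In Shweta Kapila that share was 4.54%, 4.72% and 9.00% in high and 13.1%, 11.7% and 5.57% in low yielding cows. Share and yield class partly go together there, so the covariate fit cannot tell them apart.

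Cows of 1 group differed more in Shweta Kapila than in Gir, and within Shweta Kapila the sugar transporters had the widest spread of the 5 substrate classes. The SD of log2(CPM + 0.5) between the 3 cows of a group had a median over members of 0.251 in high and 0.236 in low yielding Gir cows, and of 0.461 in high and 0.588 in low yielding Shweta Kapila cows. Over all tested genes the medians were 0.241, 0.251, 0.436 and 0.488 in the same order of groups. For the 13 sugar transporters they were 0.189 in high and 0.344 in low yielding Gir cows, and 0.769 in high and 1.00 in low yielding Shweta Kapila cows. SLC2A8, a glucose transporter of endosomes, shows this spread, with 4.05, 2.08 and 0.411 CPM in high and 0.445, 0.184 and 2.68 CPM in low yielding Shweta Kapila cows. SLC25 carriers had 0.218 and 0.185 in high and low yielding Gir cows, and 0.498 and 0.568 in high and low yielding Shweta Kapila cows. No test was made of these spreads.

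**Figure D5:**
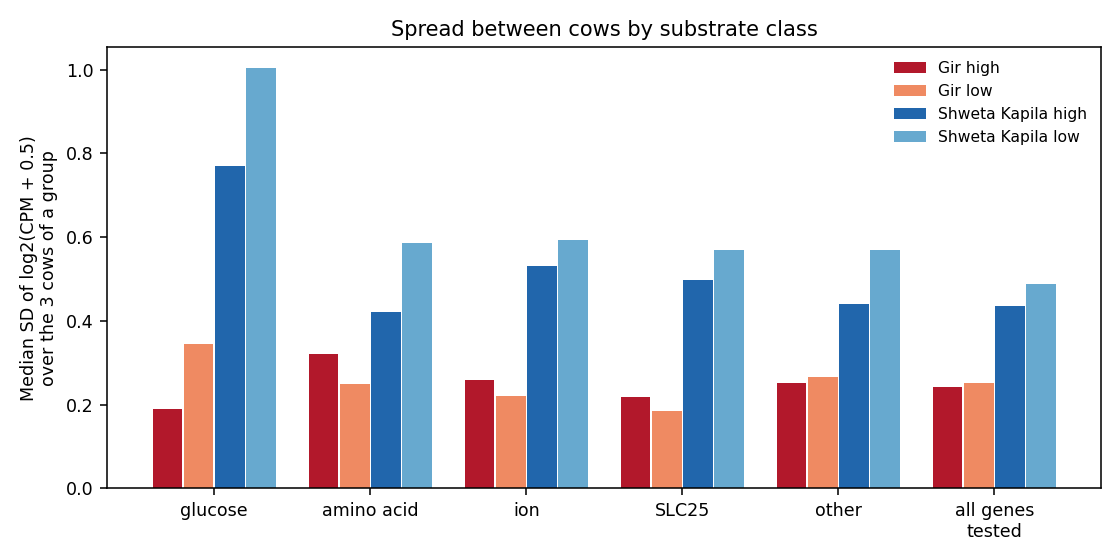
Median over genes of the SD of log2(CPM + 0.5) between the 3 cows of a group (y axis), by substrate class and over all genes tested (x axis). Bars are the 4 groups, with high yielding before low yielding cows, and carry no error bar because each is a median over genes. The sugar transporters in Shweta Kapila stand highest, at 0.769 in high and 1.00 in low yielding cows.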

How the data were processed

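Blood RNA of 12 cows was sequenced from libraries depleted of ribosomal RNA and made with a strand-specific kit, per the labels' protocols. The authors deposited 1 table of estimated counts, so called here because 57.0% of its values are not whole numbers (tolerance 1e-06). Trimmomatic and FastQC are named in the submitters' processing notes, without versions. Not given in the sources used here are the genome build, the aligner and how strand was treated in counting. Symbols came from a RefSeq gene table of Bos indicus, which matched 22754 of 26229 identifiers (86.8%). Some further genes whose symbols have the same form are not reported here.

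The deposited expected counts were rounded and tested with edgeR 4.0.16 (R 4.3.3): filterByExpr with a minimum count of 10 and a minimum total of 15, TMM scaling, a robust quasi-likelihood fit of 4 group means over all 12 libraries, and Benjamini-Hochberg adjustment over 15420 genes at an FDR of 0.05. The common biological coefficient of variation was 0.381. The design had foreseen whole counts. Alternatives, in 23 settings, included DESeq2 1.42.0, limma 3.58.1 (voom with sample weights), other filters and scalings, each cow left out and thinned counts. Python 3.11.15, pandas 2.3.3, NumPy 2.4.6 and matplotlib 3.10.9 made the summaries. The fit was tested on simulated data.

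Totals of 14.2 M to 27.2 M set a floor of 0.368 to 0.704 CPM for 10 counts, before TMM scaling. Members named were known transporters of a written list and, in each comparison and class, the 2 of lowest p on each side, and others are said to be chosen after their values were seen. Members and lists were chosen with earlier results of these data known. Of the members, SLC16A13, SLC25A45, SLC26A3, SLC45A2 and SLC4A1 were not tested for low counts. Replicate numbers did not pair the cows, as the closing section gives.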

Additional observations from a re-analysis of the deposited data

How the results depend on the processing

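For the 2 members of lowest p on each side in each comparison and class, 88 of 100 fold changes kept their sign in every setting tried. These were picked by p-value in the same cows that the settings refit. The count is therefore no independent check and does not cover the other members named. DESeq2 called 2 members for any group difference (0.939%, against 1.35% of all genes), and voom with sample weights called 52 for yield in Shweta Kapila (24.4%, against 25.3% of all genes), 20 for both breeds (9.39%, against 8.36%), 19 for the difference between breeds (8.92%, against 8.57%), 41 for breed (19.2%, against 16.7%) and 80 for any group difference (37.6%, against 30.4%); the cause was not tested. Leaving out 1 cow gave 0 to 5 called members for breed, with 5 without low yielding Shweta Kapila cow 3 (2.31%, against 2.84% of all genes). The fit without the 3 deepest libraries keeps only cow 3 of the low yielding Shweta Kapila cows, so depth and cow cannot be told apart in it. There the breed fold change turned to 0.021 for SLC16A10, 0.064 for SLC25A36 and 0.27 for SLC25A16, the Shweta Kapila yield value to 0.083 for SLC2A13 and 0.0047 for SLC25A15, and the difference between breeds to -0.35 for SLC2A13 and 0.045 for SLC2A1. With the short identifier share as covariate, the Shweta Kapila yield value was -0.023 for SLC2A6 and 0.55 for SLC2A13, and the difference between breeds was -0.83 for SLC2A13 and 0.13 for SLC25A25. Voom gave -0.49 for the difference in SLC2A9. Leaving out 1 cow spanned -0.52 to 0.031 for SLC2A1 by breed, -0.71 to 0.084 for SLC25A34 in Gir, and, for the difference between breeds, -0.25 to 1.04 for SLC2A13 and -0.69 to 0.55 for SLC2A9.

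The replicate numbers carry no stated pairing: deviations of same-numbered cows correlated at -0.063, -0.064 and 0.006 in Gir and at -0.511, -0.134 and -0.558 in Shweta Kapila. With the replicate block 0 members were called in each of the 6 comparisons. Depth limits the 25 members under 1 CPM.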
